A study of Arabidopsis thaliana with 9 samples.

Results

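The comparison set 3 ATH1 arrays of Arabidopsis thaliana seedlings carrying 35S::JMJ24 against 3 arrays of wild-type Col-0 seedlings, 6 of the 9 arrays of the series. The remaining 3 arrays hold a jmj24 mutant of At1g09060 obtained from a stock centre, and they served only for the shared estimate of spread and as values to set beside the comparison. The 35S::JMJ24 line was made by Agrobacterium-mediated transformation of the plant, and the number of independent lines behind the 3 arrays is not stated. The extraction protocol gives an age of 9 days for all seedlings, whereas the growth protocol states a later age. Arrays were assigned to genotypes by their titles. Nothing in the labels says that the 3 arrays of a genotype came from separately grown plants. The p-values therefore cover only array-to-array scatter, part or all of which could be technical. No probe set is paired with JMJ24 in the annotation used here, so the level of the overexpressed gene could not be checked.

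JMJ24 belongs to the jumonji family of nuclear proteins, whose best known members remove methyl groups from histones. The cauliflower mosaic virus 35S promoter drives transcription in most plant tissues, so a gene placed behind it is usually transcribed well beyond its normal cells. In plants, transposons and their remnants are kept silent by DNA methylation, histone marks and small RNAs. A change in a silencing factor can therefore appear in transposon remnants and pseudogenes, as well as in ordinary genes that lie near them. The RNA came from whole seedlings, in which fewer cells of a type and less RNA per cell cannot be told apart.

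The values are the deposited array summaries, read as log2, so that a difference of 1 is a doubling. A probe set was called bright where the higher of the genotype means exceeded 6. Of 22746 probe sets tested, 16507 (72.6%) were bright, and 340 of these exceeded the mark in 1 genotype only, 212 in 35S::JMJ24 and 128 in wild type. A probe set that is bright through its higher genotype alone had to lean that way. The bright probe sets covered 9051 named loci of 13333 measured, and 820 of those loci fell into 39 groups. Of the 820, 161 were annotated pseudogenes, grouped by their biotype, and the other 659 were grouped mainly by gene symbol. In all, 7828 bright loci, pseudogenes included, carried a locus number and no symbol, and they are described by number only. The correlation between pairs of the 6 arrays over all probe sets ranged from 0.9938 to 0.9976. Wild-type array 1 lay farthest from its genotype mean, with a root mean square deviation of 0.15 over bright probe sets, against 0.0887 to 0.134 on the other 5 arrays. For many of the results that this array moved, though not for all, the value without it is given.

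Few transcripts passed the test. In 35S::JMJ24, 4 of 22746 probe sets differed from wild type at an adjusted p under 0.05 (limma, two-sided, Benjamini-Hochberg over all probe sets), which is 0.0176% of those tested. All 4 were bright, which is 0.0242% of bright probe sets, and 2 rose (0.0121%) and 2 fell (0.0121%). The test called 1 locus among the 9051 bright loci (0.011%), and it fell, so 0% of bright loci were called higher. Without the 3 arrays numbered 1, a single call (1 probe set) was left.

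The locus that fell was AT1G43590, annotated as a pseudogene. The wild-type arrays read 9.63, 9.59 and 9.65 on the log2 scale, and the overexpressor arrays read 7.48, 7.62 and 7.35. Wild type lay close together and far above every overexpressor array. The difference of -2.14 (SE 0.078, adjusted p = 6.94e-06, limma) is a level 4.4-fold higher in wild type, and it passed under every alternative tried. The jmj24 mutant read 8.13, 8.21 and 8.09 for this pseudogene, between the other genotypes. Its own test against wild type gave -1.48 (adjusted p = 7.84e-05, limma), with the same wild-type arrays and against a background of 1.41% of bright probe sets called, and 35S::JMJ24 lay 0.66 below the mutant by a direct test (-0.66, adjusted p = 0.0138, limma), in a comparison that called 0.321% of bright probe sets.

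The other 3 calls were probe sets that carry no gene in the annotation used here. Probe set 264649_at read 9.44, 9.24 and 9.56 in wild type and 11.39, 11.26 and 11.20 in 35S::JMJ24. It rose 3.66-fold (log2 difference 1.87, SE 0.106, adjusted p = 0.000204, limma), with a clear gap between the genotypes. In the mutant the same probe set read 7.33, 7.34 and 7.60, below wild type, and the direct difference between overexpressor and mutant was 3.86 (adjusted p = 5.21e-07, limma). This call was lost without the 3 arrays numbered 1, at an adjusted p of 0.0748 (limma).

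Probe set 255459_at rose 3.01-fold, from 9.39, 9.37 and 8.99 in wild type to 10.96, 10.91 and 10.64 (log2 difference 1.59, SE 0.145, adjusted p = 0.00919, limma). Here the mutant mean was 10.75 ± 0.221 (SD, n = 3) and the overexpressor mean 10.84 ± 0.172, so these genotypes overlapped. The direct difference was 0.09 (adjusted p = 0.966, limma). Its call was lost without overexpressor array 1 (adjusted p = 0.0813), overexpressor array 2 (0.116), wild-type array 2 (0.0564) or the 3 arrays numbered 1 (0.136). Probe set 261927_at fell by 0.55 on the log2 scale, from 10.26, 10.30 and 10.35 to 9.80, 9.76 and 9.69 (SE 0.0622, adjusted p = 0.0434, limma), a level 1.47-fold higher in wild type. That fall was the least secure of the 4. Its call was lost when any single array of the comparison was left out, with adjusted p-values of 0.124 to 0.279 (limma). The call was also lost on the 6 arrays alone (adjusted p = 0.218, limma). In the mutant this probe set read 9.80, 9.73 and 9.68, and overexpressor minus mutant was 0.01 (adjusted p = 0.991, limma). Against the same wild-type arrays the mutant gave -0.56 (adjusted p = 0.0034, limma).

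**Figure D1:**
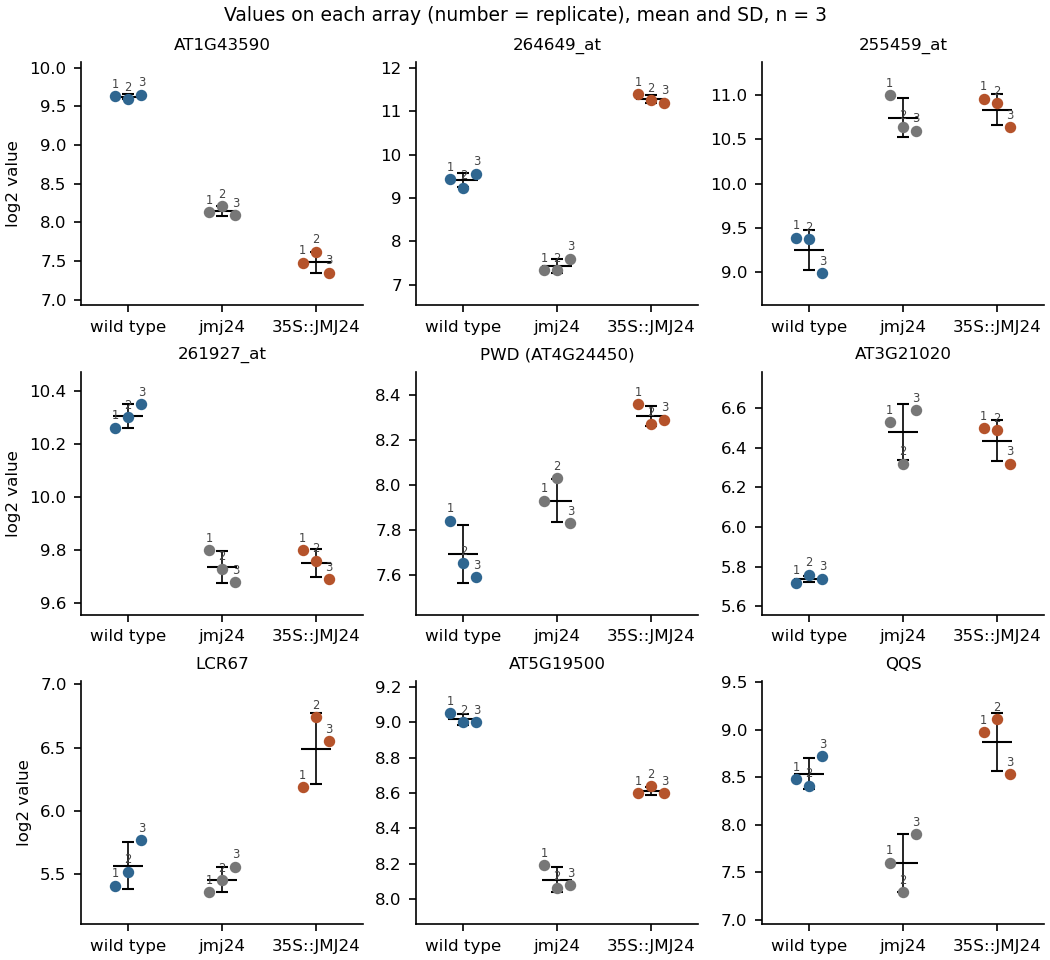
Log2 value of 9 named transcripts on each array (points, numbered by replicate) in wild type, the jmj24 mutant and 35S::JMJ24; bars give the mean and SD of 3 arrays, and each panel has its own axis, which does not start at 0. In AT1G43590, 264649_at, 255459_at and 261927_at, the 4 calls, no overexpressor array falls within the wild-type range, and the same holds for PWD, AT3G21020, LCR67 and AT5G19500, which missed the threshold.

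Below the threshold, the direction among bright transcripts leaned slightly upwards. Of the 9051 bright loci, 4955 had a higher mean in 35S::JMJ24 and 4096 a lower one (54.7% higher). The median difference was 0.0132, and the 10th and 90th percentiles were -0.138 and 0.178. A difference of 1.5-fold or more was reached by 31 loci, of which 20 were higher and 11 lower, whereas over all bright probe sets the same mark split evenly, at 37 higher and 36 lower. At an unadjusted p under 0.05, 1222 bright probe sets stood out (7.4%), 778 higher (4.71%) and 444 lower (2.69%). The 3 values of each genotype did not overlap in 2110 bright probe sets (12.8%), 1232 higher (7.46%) and 878 lower (5.32%). Among bright loci, 7.52% had an unadjusted p under 0.05 and 12.8% did not overlap. This lean depended on scaling. After a renewed quantile normalization, 50.4% of bright loci were higher, and the splits became 646 higher to 609 lower and 1061 higher to 1165 lower.

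The lean also varied with brightness. Among loci between 6 and 8, 57.6% were higher in 35S::JMJ24 (n = 3166), and between 8 and 10 the share was 57.8% (n = 3590). It was 48.3% between 10 and 12 (n = 1840) and 36.9% above 12 (n = 455). The brightest transcripts of a seedling, among them those of the chloroplast, thus more often had the lower mean in the overexpressor. The medians of these 4 classes were small, from -0.019 above 12 to 0.0283 between 6 and 8.

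**Figure D2:**
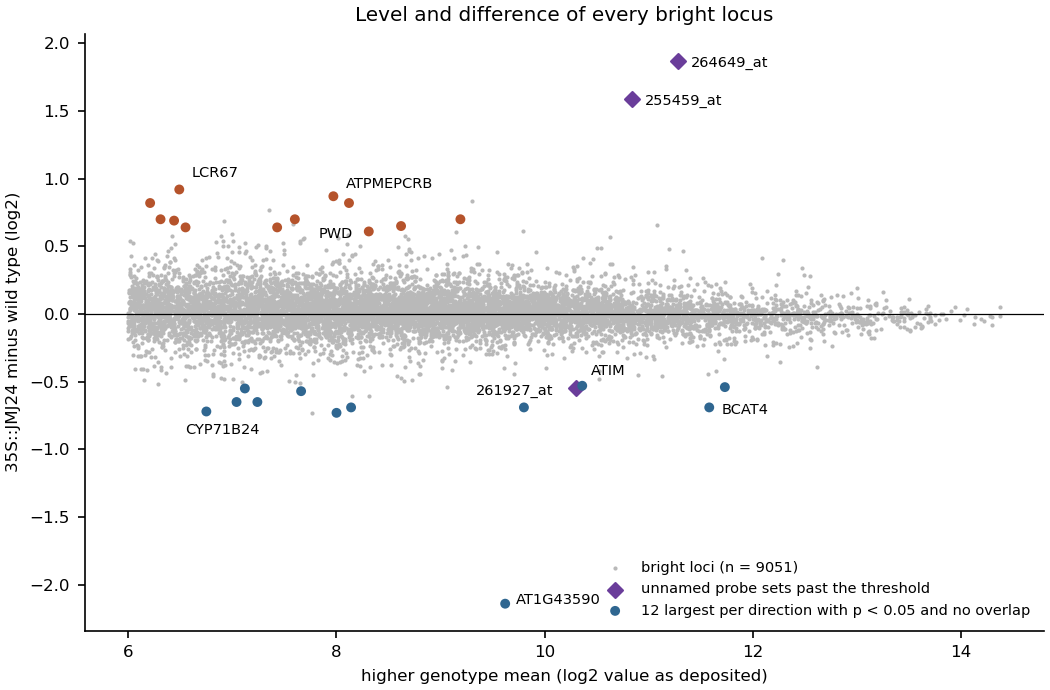
Difference of 35S::JMJ24 from wild type (log2, vertical) against the higher genotype mean (log2, horizontal) for the 9051 bright loci (grey). Coloured points are the 12 largest differences in each direction with an unadjusted p under 0.05 and no overlap, and diamonds the 3 unnamed probe sets that passed the test; AT1G43590 at -2.14 is the only named locus beyond 1 log2 unit.

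Transcripts of the chloroplast genome had the most uniform direction of any large group. The plastid genome encodes core subunits of the photosystems, the cytochrome b6f complex, the ATP synthase, the NDH complex and Rubisco, along with ribosomal proteins and a polymerase. All 45 measured plastid genes for photosynthetic complexes were bright, and all 45 had a lower mean in 35S::JMJ24, with a median difference of -0.126. The 24 measured plastid genes for ribosomal proteins, polymerase subunits and other functions were also all lower, with a median of -0.129. No member of either group passed the test. At an unadjusted p under 0.05, 7 of the 45 and 1 of the 24 were lower, against 2.53% of all bright loci.

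The photosystem II gene psbK read 12.42, 12.64 and 12.58 in wild type and 12.36, 12.21 and 12.32 in 35S::JMJ24 (difference -0.25, SE 0.0846, adjusted p = 0.601, limma). The groups did not overlap, but wild-type array 1 lay close to the overexpressor arrays. Transcripts of ndhG, a subunit of the NDH complex that carries electrons around photosystem I, showed the same layout, with wild-type arrays at 12.11, 12.33 and 12.35 and overexpressor arrays at 12.09, 12.02 and 12.01. For psaJ of photosystem I, the difference was -0.33 (adjusted p = 0.623, limma), and wild-type array 1 at 11.53 fell within the overexpressor range. By complex, all 5 psa, 15 psb, 6 pet, 10 ndh and 6 atp genes were lower, with medians of -0.179, -0.107, -0.116, -0.178 and -0.0859. Rubisco's large subunit gene rbcL lay 0.19 lower (difference -0.19, adjusted p = 0.671, limma).

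The uniform direction is not a uniform separation of arrays. Measured as the median deviation of the 45 genes from their 6-array means, wild-type arrays 2 and 3 stood at 0.181 and 0.129. Wild-type array 1 stood at -0.0632, among the overexpressor arrays at -0.0561, -0.0369 and -0.123. Genes of 1 organelle share promoters, processing and templates, so their number does not count as independent evidence. Without wild-type array 1 the medians of both plastid groups were -0.212 and -0.192. Without wild-type array 2, the highest for both, they were -0.0739 and -0.0901, the smallest of any alternative.

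Nuclear genes for photosynthesis had smaller differences, and the contrast with the plastid groups was not tested. Of 27 bright members, 24 had a lower and 3 a higher mean, with a median of -0.0385, and none had an unadjusted p under 0.05. The largest differences were those of LPA66, an editing factor needed for photosystem II assembly (-0.20, adjusted p = 0.673), and CaS, a thylakoid calcium-sensing protein (-0.19, adjusted p = 0.677). SBPASE, an enzyme of the Calvin cycle, followed at -0.15. Without wild-type array 1 the differences of LPA66, CaS and SBPASE were -0.11, -0.14 and -0.07. The light-harvesting gene LHCB4.1 read 14.29, 14.32 and 14.28 in wild type and 14.29, 14.19 and 14.18 in 35S::JMJ24, which overlap. Genes for chlorophyll, haem and carotenoid synthesis were lower in 10 of 13 cases, with a median of -0.0596. They include NOL, a chlorophyll b reductase (-0.20, adjusted p = 0.645), HEME2, an enzyme of tetrapyrrole synthesis, and LYC, which cyclizes lycopene. Without wild-type array 1 the median of this group was -0.0288. The difference of HEME2 then went from -0.20 to -0.10, that of NOL to -0.16 and that of LYC from -0.12 to -0.10. Proteins that edit organelle transcripts were mixed, with 8 higher and 4 lower.

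**Figure D3:**
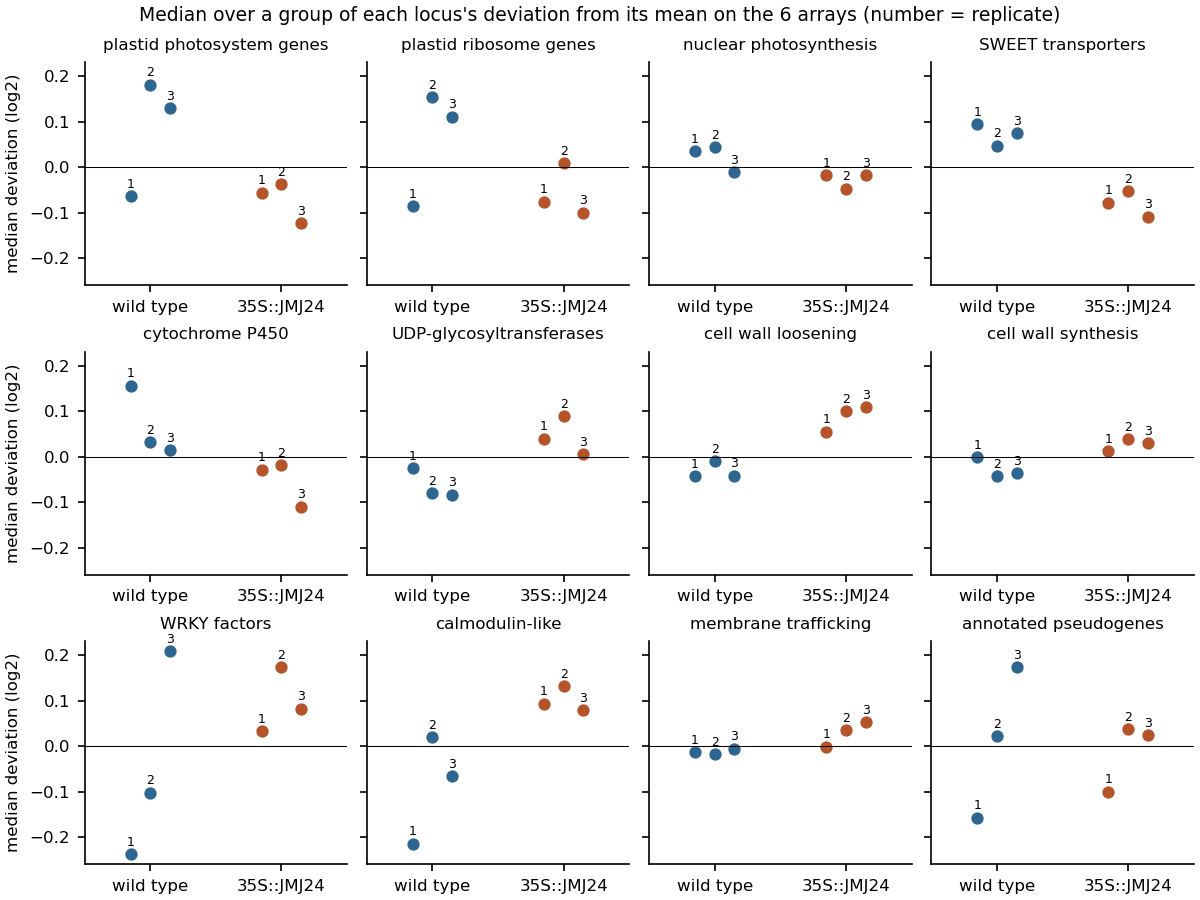
For 12 functional groups, the median over bright members of each locus's deviation from its own mean on the 6 arrays (log2), shown for every array (points, numbered by replicate). Wild-type array 1 lies among the overexpressor arrays for both plastid groups, and the genotypes also overlap for WRKY factors and annotated pseudogenes. Every other group shown separates all 3 arrays of each genotype, by narrow gaps for nuclear photosynthesis and membrane trafficking. The 12 groups were picked for display, and in most of the 38 groups with a median the genotypes overlapped.

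SWEET proteins carry sugars across the plasma and vacuolar membranes. All 8 bright SWEET genes of 14 measured had a lower mean in 35S::JMJ24, with a median of -0.168, and none passed the test. One of the 8, SWEET4, was bright through wild type alone and so had to be lower, and the 7 bright in both genotypes had a median of -0.164. The group medians were 0.094, 0.0474 and 0.0747 on the wild-type arrays and -0.0783, -0.0529 and -0.109 on the overexpressor arrays. The genotypes thus did not overlap, whereas they overlapped in most of the 38 groups with a median. SWEET16, a vacuolar transporter, read 8.49, 8.58 and 8.77 in wild type and 8.36, 8.34 and 8.37 in 35S::JMJ24 (difference -0.26, SE 0.0871, adjusted p = 0.605, limma). SWEET2 lay 0.16 lower (difference -0.16, adjusted p = 0.639), also without overlap. SWEET17, another vacuolar transporter, and SWEET11, which loads sucrose into the phloem, were lower by similar amounts, with overlapping arrays.

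Among 13 bright genes of starch, sucrose and glycolysis, 9 were lower and 4 higher, with a median of -0.0487. The largest difference was that of AT4G24450, which carries the symbol PWD, as does a second locus in the annotation. Enzymes of this name phosphorylate the glucan chains of starch before its breakdown, a role not examined here for AT4G24450 itself. AT4G24450 read 7.84, 7.65 and 7.59 in wild type and 8.36, 8.27 and 8.29 in 35S::JMJ24, a level 1.53-fold higher (difference 0.61, SE 0.0815, adjusted p = 0.0914, limma). The overexpressor arrays stood together above every wild-type array. This gene passed the test in 2 alternatives, with the dimmer probe sets left out (adjusted p = 0.0405) and with array weights (0.0158), and its adjusted p reached 0.643 without the arrays numbered 1. The sucrose phosphate synthase gene ATSPS4F was lower (difference -0.16, adjusted p = 0.661).

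Cell wall genes leaned higher, though the share in the loosening group was not far from that of all bright loci. Expansins loosen the wall, xyloglucan endotransglucosylases (XTH) cut and rejoin its xyloglucan, and pectin methylesterases and cellulases modify the other polymers. Of 33 bright members of this loosening group, 21 were higher and 12 lower, with a median of 0.0467. Of all bright loci 54.7% were higher, with a median of 0.0132. After renewed quantile normalization the split of the group was 19 higher to 14 lower. At an unadjusted p under 0.05, 7 were higher and 0 lower, against 4.99% and 2.53% of all bright loci, and none passed the adjusted test. Among the 30 members bright in both genotypes, 18 were higher and 12 lower, and 5 of the 7 remained, since EXPA7 and EXPA9 were bright through the overexpressor alone. The pectin methylesterase gene ATPMEPCRB had the largest difference, 0.87 (SE 0.319, adjusted p = 0.623, limma), from 6.79, 6.94 and 7.57 to 7.59, 8.01 and 8.31. XTH18 read 9.73, 10.00 and 10.44 in wild type and 10.49, 10.77 and 10.60 in 35S::JMJ24 (difference 0.57, adjusted p = 0.608, limma). In both genes the highest wild-type array, array 3, came close to the lowest overexpressor array.

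GH9C1, a cellulase of glycoside hydrolase family 9, gave 0.55 (SE 0.171, adjusted p = 0.542, limma), with wild-type array 1 lowest at 7.73 and the other wild-type arrays at 8.46 and 8.21. The expansins EXPA7 and EXPA18 are markers of root hairs. EXPA18 read 6.95, 7.73 and 7.61 in wild type and 7.92, 7.94 and 7.83 in 35S::JMJ24, and EXPA7 read 5.53, 6.16 and 5.96 against 6.30, 6.16 and 6.38. For both, wild-type array 1 was the lowest of the 6. Without that array the differences were 0.35 for GH9C1, 0.23 for EXPA18 and 0.22 for EXPA7. As a family, the 9 bright alpha-expansins were not shifted, with 4 higher and 5 lower (median -0.00886), while 6 of 8 XTH genes were higher.

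Genes that build wall polysaccharides were higher in 19 of 26 cases, with a median of 0.0637, beside 54.7% and 0.0132 for all bright loci. Of the 26, 3 had an unadjusted p under 0.05, all of them higher, against 4.99% of all bright loci higher and 2.53% lower. CSLC04, which makes the xyloglucan backbone, read 8.82, 9.10 and 9.12 in wild type and 9.19, 9.38 and 9.38 in 35S::JMJ24 (difference 0.31, SE 0.114, adjusted p = 0.623, limma). The xylan synthesis gene IRX15-L gave 0.23 (adjusted p = 0.638), without overlap. TBL32, of the family that adds acetyl groups to wall polymers, gave 0.25 (adjusted p = 0.607), and 12 of 16 TBL genes were higher.

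Enzymes that modify small molecules split by family. UDP-glycosyltransferases attach sugars to hormones, flavonoids and other small molecules. Of 34 bright members, 29 were higher and 5 lower in 35S::JMJ24, with a median of 0.108. At an unadjusted p under 0.05, 7 were higher and 1 lower, against 4.99% and 2.53% of all bright loci. Above the wild-type range on every overexpressor array lay 8, against 7.86% of all bright loci. The group medians were -0.0252, -0.08 and -0.0833 on the wild-type arrays, all below the overexpressor arrays at 0.0396, 0.0885 and 0.00476. None of the 34 passed the adjusted test, the smallest adjusted p being 0.527.

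UGT71C4 read 9.57, 9.60 and 9.58 in wild type and 9.90, 9.88 and 9.68 in 35S::JMJ24 (difference 0.23, SE 0.0703, adjusted p = 0.527, limma). UGT73B5 showed the largest difference of the group, from 7.91, 8.11 and 8.11 to 8.31, 8.44 and 8.46 (0.36, adjusted p = 0.602, limma). Its relative UGT73B4 and UGT87A2 gave 0.27 and 0.26. UGT76B1, which conjugates salicylic acid and an isoleucine-derived compound, gave 0.29 (adjusted p = 0.623). In some subfamilies every bright gene was higher, with 6 of 6 UGT71, 6 of 6 UGT76, 5 of 5 UGT85A and 3 of 3 UGT72E genes. All 5 lower members lay in other subfamilies, so the direction was not shared by every subfamily. Among the 5 lower members, UGT74B1, which glucosylates glucosinolate precursors, had the largest difference (-0.20, adjusted p = 0.661).

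Named cytochrome P450 enzymes, chiefly those of the CYP71B subfamily, went the other way. These haem enzymes insert oxygen into small molecules, and 12 of the 15 bright members belong to the CYP71B subfamily. Of the 15, 11 were lower and 4 higher, with a median of -0.113, and 10 of the 12 CYP71B genes were lower. CYP71B24 read 6.67, 6.48 and 7.11 in wild type and 6.12, 5.89 and 6.09 in 35S::JMJ24, a level 1.65-fold higher in wild type (difference -0.72, SE 0.144, adjusted p = 0.353, limma). CYP71B31 and CYP71B37 were lower by 0.48 and 0.27 (differences -0.48 and -0.27, adjusted p = 0.515 and 0.605), both without overlap. The few bright members outside CYP71B were mixed, and among them CYP718 had the largest higher mean of the group, at 0.29 (adjusted p = 0.647, limma).

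**Figure D4:**
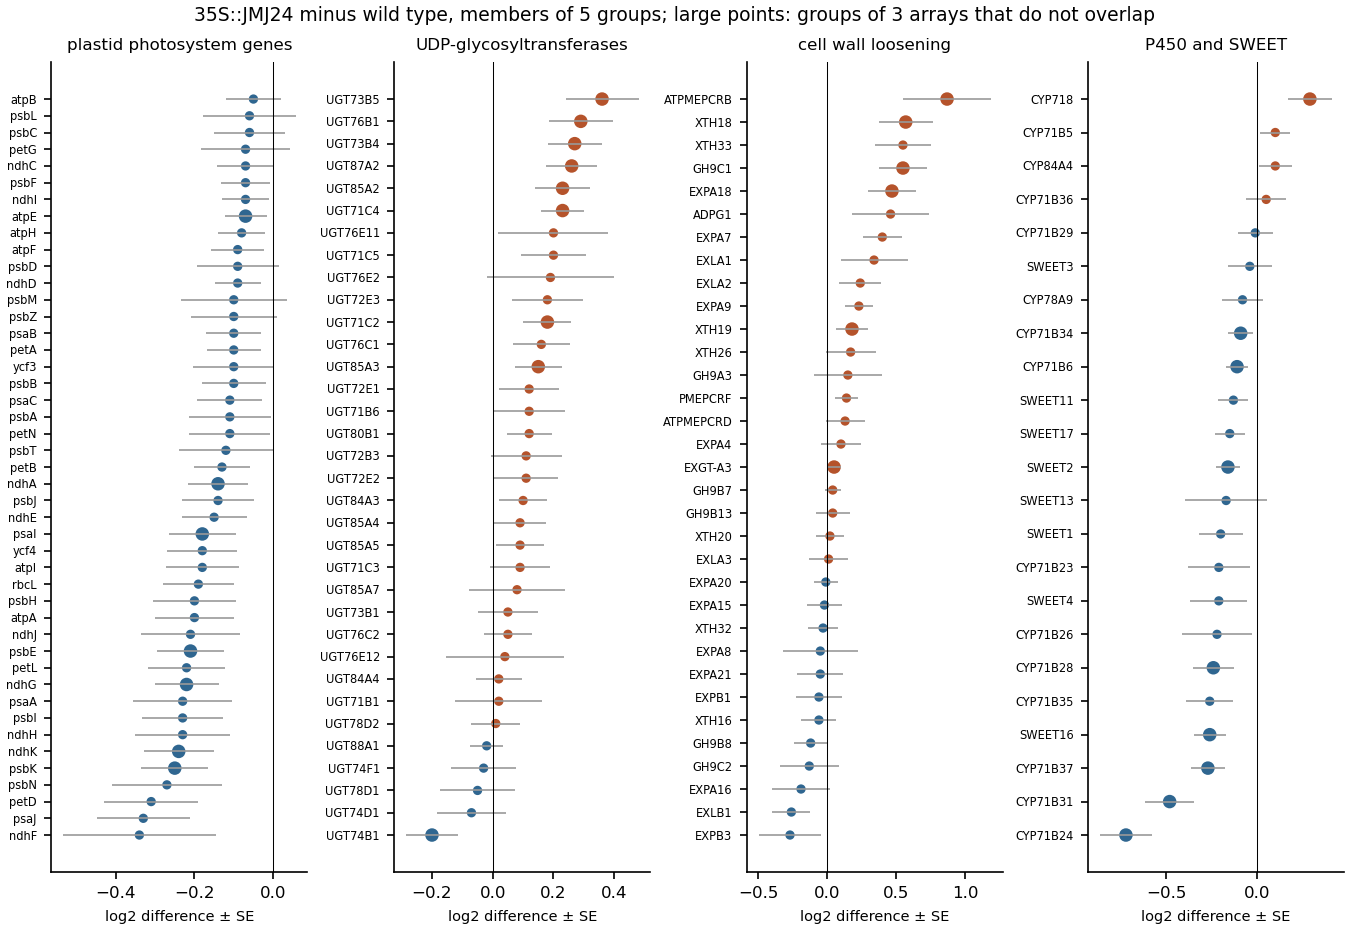
Difference of 35S::JMJ24 from wild type (log2, bars give the SE from limma) for bright members of 5 groups; large points mark genes whose 3 arrays per genotype do not overlap. All 45 plastid photosynthesis genes and all 8 SWEET genes lie below 0, and 29 of 34 UDP-glycosyltransferases lie above it.

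Genes of glucosinolate and phenylpropanoid synthesis numbered 7, of which 5 were lower. BCAT4, which starts methionine chain elongation for aliphatic glucosinolates, read 11.64, 11.67 and 11.43 in wild type and 11.28, 10.25 and 11.13 in 35S::JMJ24 (difference -0.69, SE 0.259, adjusted p = 0.623, limma). Overexpressor array 2 was far below the others, and all 3 overexpressor arrays lay under the wild-type range. The glucosinolate side-chain gene AOP3 was lower too (difference -0.45, adjusted p = 0.667), with overlap. Beta-glucosidases, some of which activate glucosinolates, were lower in 9 of 13 cases, with a median of -0.0487. They include BGLU19 (-0.61, adjusted p = 0.673) and BGLU28 (-0.42, adjusted p = 0.661). Without wild-type array 1 the differences of BGLU19 and BGLU28 were -0.51 and -0.27. Glutathione S-transferases were mixed. GSTU20 was lower (-0.39, adjusted p = 0.623) and GSTU28 higher (0.36, adjusted p = 0.645).

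WRKY products regulate defence and senescence. Of 7 WRKY genes measured in this group, which was formed mainly by symbol, 6 were bright. These 6 were all higher, with a median of 0.161, and none had an unadjusted p under 0.05. WRKY53 read 7.90, 9.52 and 9.83 in wild type and 9.24, 9.80 and 9.59 in 35S::JMJ24, so that the difference of 0.46 (SE 0.426, adjusted p = 0.803, limma) came with a low wild-type array 1. The same array was lowest for WRKY22 and WRKY6, whose differences went from 0.37 to 0.02 and from 0.20 to 0.09 without it. Without it the median of the group was 0.0368 and the difference of WRKY53 was -0.13, the opposite sign. Calmodulin-like calcium sensors were higher in 5 of 7 cases, with a median of 0.0791, and wild-type array 1 was lowest, at a group median of -0.214. Leaving that array out gave 0.078, and leaving out wild-type array 3 gave 0.0262. CML37 gave 0.26 (adjusted p = 0.621). U-box ubiquitin ligases were higher in 7 of 7 cases, among them PUB22 (0.35, adjusted p = 0.623) and PUB23 (0.36, adjusted p = 0.67), which restrain immune signalling. Without wild-type array 1 the differences of PUB22 and PUB23 were 0.19 and 0.25.

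The defensin-like peptide gene LCR67 had the largest higher mean of any bright locus. It read 5.41, 5.52 and 5.77 in wild type and 6.19, 6.74 and 6.55 in 35S::JMJ24, a level 1.9-fold higher (difference 0.92, SE 0.141, adjusted p = 0.185, limma). Since its wild-type mean of 5.57 was below 6, it was bright through the overexpressor alone. The direct difference from the mutant was 1.04 (adjusted p = 0.0232, limma). LCR67 was picked by its level on the same overexpressor arrays, so that value is a description only. Of the 11 other members of the defensin group, 6 were higher and 5 lower, with a median of 0.0221. PDF1.4 (0.40) and PDF2.5 (0.24) were the other members above the wild-type range on every array. Among 13 genes of cold, abscisic acid and drought response, 7 were higher and 6 lower. The late embryogenesis abundant gene AtLEA4-1 read 8.74, 8.85 and 8.81 in wild type and 8.39, 8.46 and 8.41 in 35S::JMJ24 (difference -0.38, SE 0.0857, adjusted p = 0.388, limma). COR27, a cold and clock-responsive gene, gave 0.48 (adjusted p = 0.688) with overlap.

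Other regulatory families were divided. Basic leucine zipper factors were higher in 12 of 16 cases, against 54.7% of all bright loci, with a median of 0.0911. In contrast, BZIP24, a regulator of salt responses, was lower (-0.33, adjusted p = 0.542, limma). Auxin response genes were split evenly, 4 higher and 4 lower. Heat shock proteins and chaperones were 7 higher and 9 lower.

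Genes of chromatin and silencing were 10 higher and 9 lower of 19 bright members, with a median of 0.00216. None passed the test. ASF1B, a histone chaperone, read 9.24, 9.13 and 9.17 in wild type and 9.32, 9.50 and 9.24 in 35S::JMJ24 (difference 0.18, SE 0.0749, adjusted p = 0.649, limma), with overexpressor array 3 barely above wild-type array 1. NRPD7, a subunit of the silencing polymerase Pol IV, gave 0.15 (adjusted p = 0.694) and the histone H2B gene HTB2 gave 0.12 (adjusted p = 0.71). DME, a DNA demethylase, INO80, a chromatin remodeller, and AGO7, an argonaute, each differed by less than 0.1. For the general transcription and messenger RNA group, 23 of 32 members were higher, against 54.7% of all bright loci, with a median of 0.045. They include the splicing factor gene ATU2AF35A (0.21, adjusted p = 0.589) and TEX1, of the THO export complex (0.16, adjusted p = 0.645).

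Annotated pseudogenes, many of which are transposon remnants, did not share a direction. Of 998 measured, 161 were bright, and 73 of those were higher and 88 lower, with a median of -0.00977. At an unadjusted p under 0.05, 9 were higher (5.59%) and 9 lower (5.59%), against 4.99% and 2.53% of all bright loci. Of these, 5 of the higher and 1 of the lower were bright through 1 genotype alone. Among the 141 bright in both genotypes, 58 were higher and 83 lower, with a median of -0.034, and 4 and 8 had an unadjusted p under 0.05. The median of the 161 moved with the arrays included, from -0.111 without wild-type array 1 to 0.0616 without wild-type array 3, so its sign was not settled. After AT1G43590, the smallest p belonged to AT3G21020, which read 5.72, 5.76 and 5.74 in wild type and 6.50, 6.49 and 6.32 in 35S::JMJ24, a level 1.62-fold higher (difference 0.69, SE 0.0841, adjusted p = 0.0573, limma). It was bright through the overexpressor alone, and passed with array weights (adjusted p = 0.0171, limma). Its adjusted p was 0.137 on the 6 arrays alone, 0.102 to 0.282 with 1 array left out and 0.797 without the arrays numbered 1 (limma). The mutant read 6.53, 6.32 and 6.59, and overexpressor minus mutant was -0.04 (adjusted p = 0.973, limma). AT4G01490 was lower (-0.49, adjusted p = 0.383), without overlap.

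QQS is an orphan gene that affects starch content and is known for natural epigenetic variation. It read 8.48, 8.41 and 8.72 in wild type and 8.97, 9.11 and 8.53 in 35S::JMJ24 (difference 0.33, SE 0.181, adjusted p = 0.695, limma). Overexpressor array 3 fell inside the wild-type range. The mutant arrays, at 7.60, 7.29 and 7.90, lay below every other array, and the direct difference between overexpressor and mutant was 1.27 (adjusted p = 0.0283, limma). Of 5 silencing-sensitive loci measured, only QQS and AT4G16870 were bright, and AT4G16870 gave -0.18 (adjusted p = 0.792).

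Growth and housekeeping functions showed small differences. Cell division, replication and repair genes were lower in 15 of 20 cases, with a median of -0.021. ATIM, the TIMELESS homologue, was lower (difference -0.53, SE 0.18, adjusted p = 0.607, limma), with wild-type arrays at 10.28, 10.30 and 10.50 and overexpressor arrays at 9.86, 10.21 and 9.42. Wild-type array 1 was the highest array of the division group, and without it the group's median was 0.0372, the opposite sign. Membrane trafficking genes were higher in 23 of 32 cases, against 54.7% of all bright loci, with a median of 0.0437. SNF7.1, a subunit of the ESCRT-III complex that buds vesicles into endosomes, gave 0.14 (adjusted p = 0.643). Autophagy genes were lower in 8 of 11 cases (median -0.0459).

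Cytoskeletal genes were balanced, at 12 higher and 14 lower for tubulin, actin and their partners. The actin-binding gene NET4B had the lowest p of that group, with wild-type arrays at 10.50, 10.51 and 10.52 and overexpressor arrays at 10.66, 10.81 and 10.84 (difference 0.26, SE 0.0696, adjusted p = 0.498, limma). TRM28, of a microtubule-associated family, gave 0.43 (adjusted p = 0.388), without overlap. Tetraspanins, membrane proteins that organise surface domains, were higher in 7 of 10 cases, with TET5 and TET6 higher (0.27 and 0.23) and TET4 lower (-0.21). Ubiquitin pathway genes as a whole were higher in 21 of 33 cases, with a median of 0.047. After renewed quantile normalization their split was 19 higher to 14 lower. Of all bright loci 54.7% were higher, with a median of 0.0132.

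**Figure D5:**
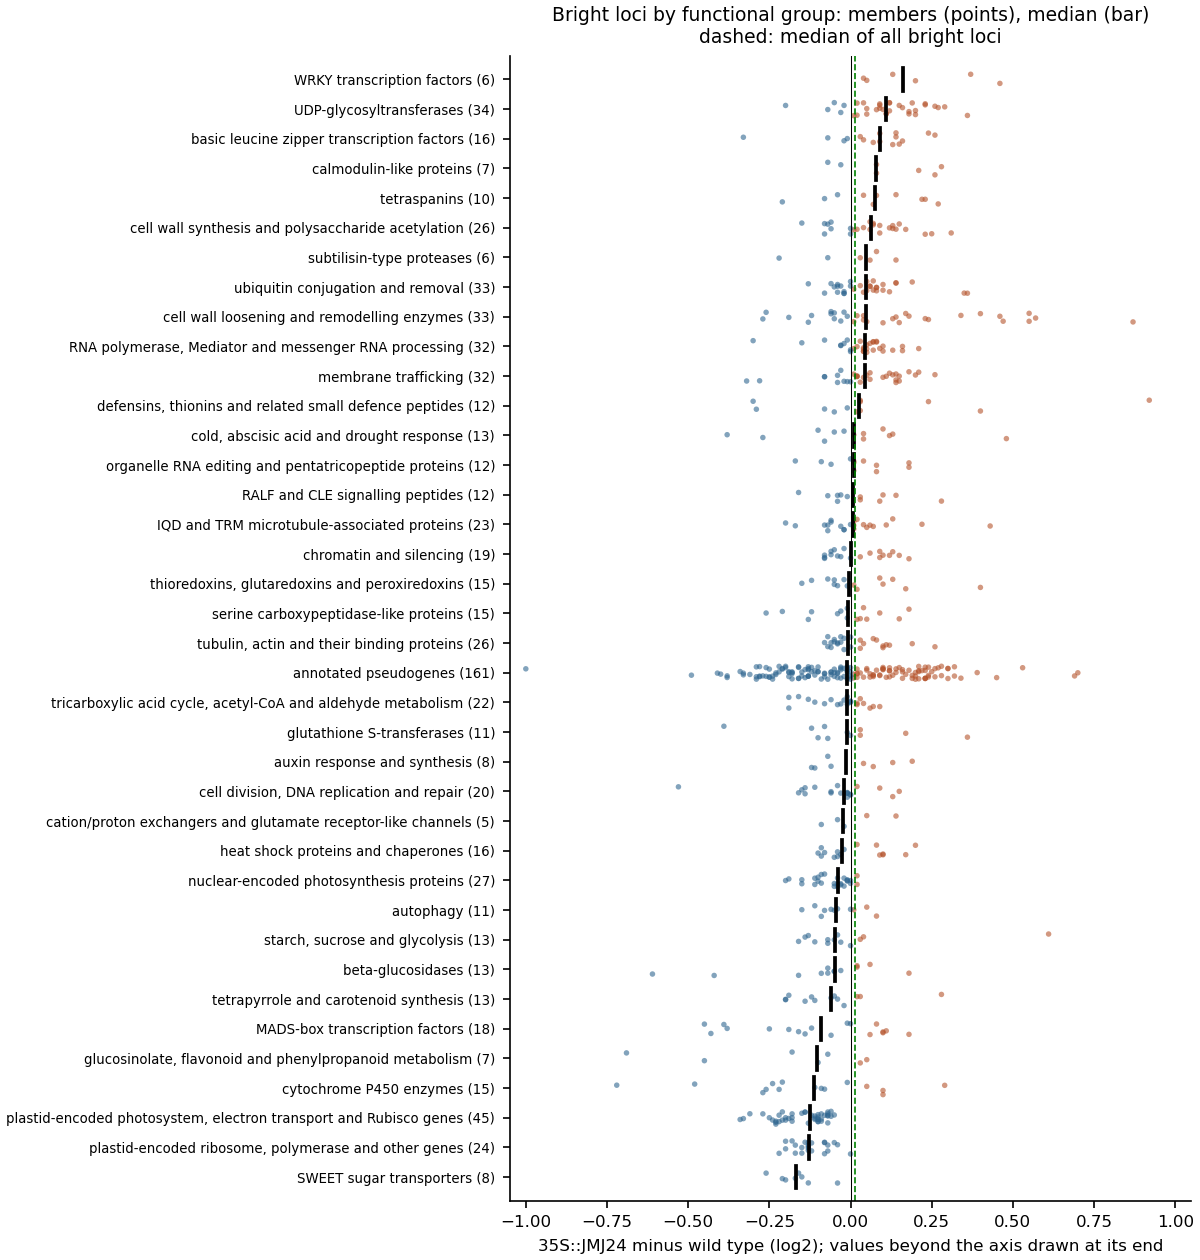
Difference of 35S::JMJ24 from wild type (log2) for bright loci in 38 functional groups, ordered by median; points are loci, black bars group medians, numbers in brackets the bright members, and the dashed line the median of all bright loci (0.0132). AT1G43590 (-2.14) is drawn at the end of the axis; group medians run from -0.168 for SWEET transporters to 0.161 for WRKY factors.

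Across the 38 groups with at least 3 bright members, 17 medians were above 0 and 21 below. In 21 of the 38 the sign was the same under all 16 alternatives, of which 4 left every median as it was and 12 moved at least 1, among them both plastid groups, nuclear photosynthesis, SWEET, P450, UDP-glycosyltransferase, both cell wall groups and membrane trafficking. The signs of pseudogenes, cell division, auxin, heat shock and chromatin groups were not stable. Medians are set beside 0.0132 for all bright loci, and no set test was run. In the mutant, which shares its wild-type controls with this comparison, the medians were -0.108 for plastid photosynthesis genes, -0.107 for SWEET, -0.19 for P450, 0.0519 for UDP-glycosyltransferases and 0.0749 for pseudogenes.

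Several of the largest differences belong to loci that the annotation used here gives by number alone. AT1G78450 read 7.45, 7.26 and 7.18 in wild type and 7.82, 8.21 and 8.32 in 35S::JMJ24, a level 1.76-fold higher (difference 0.82, SE 0.178, adjusted p = 0.383, limma). AT1G51620 gave the same difference of 0.82 (adjusted p = 0.498) but was bright through the overexpressor alone. AT4G26010 (0.70, adjusted p = 0.645) turned on wild-type array 1 at 7.65, since the other wild-type arrays, at 8.98 and 8.81, lay just below the overexpressor range of 9.00 to 9.31. Without array 1 the difference was 0.29. AT3G15720 gave 0.65 (adjusted p = 0.305) and AT4G29990 gave 0.64 (adjusted p = 0.353), both without overlap, the latter bright through the overexpressor alone.

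On the lower side, AT1G31690 gave -0.73 (adjusted p = 0.623), AT4G07820 gave -0.69 (adjusted p = 0.369) and AT3G13672 gave -0.69 (adjusted p = 0.353). AT5G19500 had a smaller difference with a very narrow spread, with wild-type arrays at 9.05, 9.00 and 9.00 and overexpressor arrays at 8.60, 8.64 and 8.60 (difference -0.40, SE 0.0599, adjusted p = 0.171, limma). The mutant, at 8.19, 8.06 and 8.08, lay lower still, and the direct difference between overexpressor and mutant was 0.51 (adjusted p = 0.0138, limma). AT4G04750 gave -0.55 against wild type (adjusted p = 0.621), while the mutant read 5.02, 4.72 and 4.32 and lay 1.89 below the overexpressor (direct difference 1.89, adjusted p = 0.00598, limma). Of 140 probe sets named by rule, 6 differed from the mutant, 5 of them higher in 35S::JMJ24 and 1 lower. Since the rule and this contrast use the same overexpressor arrays, that count is a description only.

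Tissue markers gave a partial view of seedling make-up. Green tissue was marked by 3 measured LHCB genes, whose mean level was 11.85 to 12.02 in 35S::JMJ24 and 11.98 to 12.07 in wild type. The root gene BGLU45 was 7.90 to 8.15 in 35S::JMJ24 and 7.90 to 8.05 in wild type. The 2 measured root hair genes had mean levels of 7.05 to 7.11 in 35S::JMJ24 and of 6.24, 6.95 and 6.79 on the wild-type arrays. None of these markers passed the test. The root hair level moved with GH9C1 and AT4G26010 on wild-type array 1, and its part in those differences was not tested.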

How the data were processed

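RNA from seedlings was hybridised to Affymetrix ATH1 arrays, 3 per genotype. The deposited table holds 1 log2 value per probe set and array, made by the authors with affy, per the submitters' processing notes; its version, background correction and normalization: not given in the sources used here. A log2 scale was inferred from the range of the values. Array controls (64) were left out. Probe sets were named with the platform's gene table and current RefSeq loci: 13513 probe sets name 1 gene, 503 several and 8730 none. A locus was represented by its brightest probe set.

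Genotype means were fitted to all 9 arrays with limma 3.58.1 in R 4.3.3 (6 residual and 3.335 prior degrees of freedom), two-sided, with Benjamini-Hochberg adjustment over all 22746 probe sets and a threshold of 0.05. The median SE was 0.0923, and precision is limited by how few arrays there are. The fit was tested on simulated data.

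Members and lists were chosen with earlier results of these data known, and the group patterns were corrected after a first look at annotation and values. The naming rule took bright probe sets past the threshold, JMJ24 and QQS, the 12 largest differences per direction with unadjusted p under 0.05 and no overlap, the 10 smallest p-values, and up to 3 members per group by p. Other members were named after their values were seen. Alternatives were the 6 arrays alone, a replicate block, single arrays left out, the arrays numbered 1 left out, renewed quantile normalization, a filter on dim probe sets, an intensity trend, array weights, brightness marks of 5 and 8, and the mean over a locus's probe sets. Of the tissue marker lists, no seed marker was found under its name, and 1 list is not reported here.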

Additional observations from a re-analysis of the deposited data

How the results depend on the processing

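The number of probe sets past the threshold stayed at 4 with renewed quantile normalization, the intensity trend or another brightness mark, and was 3 on the 6 arrays alone and 6 with dim probe sets left out. It was 8 over all probe sets with array weights and 1, all or bright, without the 3 arrays numbered 1. Leaving out 1 array at a time gave 2 to 4 for all and for bright probe sets, with 2 without overexpressor array 1, overexpressor array 2 or wild-type array 2. AT1G43590 passed in each of these fits. Bright probe sets without overlap numbered 6222 without the arrays numbered 1 and 3076 to 4397 with 1 array left out, since fewer arrays overlap less often by construction. The count could not change with the 6 arrays alone, the replicate block, the trend or the weights, which alter no value. Named probe sets that differed from the mutant numbered 1 without the arrays numbered 1 and 3 to 6 with 1 array left out. The number of group medians above 0 lay between 14 (quantile) and 22 (without wild-type array 1), and leaving out 1 array gave 16 to 22.

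Same-numbered overexpressor and wild-type arrays deviated together with correlations of 0.418, 0.0143 and 0.207, and differently numbered ones with -0.439 to 0.235. Overexpressor array 2 correlated best with wild-type array 3 (0.235), not with its own number. The labels do not say what a number stands for, and the main fit used it as a name only. Whether arrays of 1 number were handled together was not tested. With the replicate block, 4 probe sets passed, all bright, 261927_at no longer did (adjusted p = 0.0836, limma), 6 named probe sets differed from the mutant and 17 group medians were above 0; unadjusted calls among bright probe sets became 1202 higher and 717 lower. The cause of these shifts was not tested. Signal near background limits what dim loci can show.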
